A study of Mus musculus with 8 samples.

Results

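The eotaxins, the monocyte-attracting CC chemokines and their receptors were examined in the stromal vascular fraction (SVF) of gonadal white adipose tissue (WAT), the cells that remain when the adipocytes of a collagenase digest are floated off. The members were taken by name from the table of 54532 genes: the eotaxins Ccl11 and Ccl24, the monocyte chemoattractants Ccl2, Ccl7, Ccl8 and Ccl12, and the receptors Ccr2 and Ccr3, 8 genes in all. All 8 had a count in every mouse and passed the expression filter that left 15963 genes for testing. All mice were male C57BL/6J of unmodified genotype as far as the labels say, and were 6 weeks old when the high-fat diet (HFD) began according to the design text, while the methods give other ages for the mice of the study. The HFD held 60% of its calories as fat and was fed for 12 weeks, after which every mouse was moved to a normal chow diet (NCD) with 16% of calories as fat. From that switch until week 18, 4 mice (mice 1, 2, 6 and 9) received an IgG1k isotype control Ab and 4 mice (mice 5, 7, 8 and 10) received the anti-BAFF Ab Sandy-2, each at 2 mg/kg every 2 weeks for 6 weeks. BAFF is a survival factor for mature B cells. No mouse stayed on the HFD or on the NCD throughout, so the values describe obese mice after a diet switch, and the groups differ by design in the antibody, having been set by a glucose tolerance test before treatment.

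Chemokines of the CC class are small secreted proteins that draw leukocytes along a gradient by engaging receptors coupled to G proteins. CCL2, CCL7 and CCL12 signal through CCR2, which lets Ly6C-high monocytes leave the bone marrow and enter tissue, whereas CCL11 and CCL24 signal through CCR3, which is best known on eosinophils. In fat, CCL2 is known as a chemokine of obesity that draws in monocytes that become macrophages, and eotaxins are known as products of stromal cells and macrophages. The study measured chemokine proteins in plasma and WAT lysate, which were not analysed here, and the question put to the RNA was whether the genes for these ligands and receptors differed in the SVF after BAFF neutralization.

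Of the ligands, 5 lie side by side on the plus strand of chromosome 11, in the order Ccl2, Ccl7, Ccl11, Ccl12 and Ccl8, between 82035571 and 82116799 of the mouse build mm10, which the submitters' processing notes name. No other gene of the table lies wholly within this stretch of 81.2 kb, and Gm17268, which overlaps Ccl2 on the minus strand, had 1 count over all mice. Ccl24 stands apart on the minus strand of chromosome 5 (135569937 to 135573049), and Ccr3 (124021972 to 124031689) and Ccr2 (124101950 to 124113557) are both on the plus strand of chromosome 9. The sequences before the start of Ccl12 (ENSMUSG00000035352) and Ccl8 (ENSMUSG00000009185) are shown because these next-door neighbours differed widely in level. They are the 150 bases upstream of the RefSeq gene start in GRCm38.p6, 5′ to 3′ on the plus strand, at chr11:82101695-82101844 for Ccl12 and chr11:82115035-82115184 for Ccl8. Capitals mark TATAAAA, the letters of a TATA box.
Ccl12: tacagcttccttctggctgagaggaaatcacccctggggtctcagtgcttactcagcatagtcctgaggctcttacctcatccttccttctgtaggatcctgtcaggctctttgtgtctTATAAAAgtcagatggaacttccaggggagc
Ccl8: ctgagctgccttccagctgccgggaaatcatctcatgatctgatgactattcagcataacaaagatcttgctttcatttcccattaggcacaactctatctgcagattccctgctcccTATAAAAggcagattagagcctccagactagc
The match began 31 bases before the start of Ccl12 and 32 bases before that of Ccl8, and neither window held it on the other strand. Of 32851 mouse promoters in the RefSeq table, 1.90% held TATAAAA on the strand of the gene within the same 150 bases, and 2.96% held it on either strand. The Ccl12 and Ccl8 windows shared 95 of 157 alignment columns (60.5%). Among the members, 4 had a promoter entry, and Ccl12 and Ccl8 were the only ligands among them. The windows of the others, Ccr2 and Ccr3, are not shown and held TATAAAA on neither strand. Ccl11, Ccl24, Ccl2 and Ccl7 had no entry and are given by name only.

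The libraries held between 13562340 and 18548024 counts, so that 3 counts, taken as the lowest level the depth can show, corresponded to at most 0.221 CPM (counts relative to the library total after TMM scaling), a floor that covers counting error only. Summed CPM of adipocyte markers was 36.8 to 64.3, against 7294 to 12036 for macrophage markers and 11678 to 14505 for fibroblast and adipocyte progenitor markers, cells that the labelled SVF holds. B cell markers, which anti-BAFF Ab is known to reduce, summed to between 42.5 and 50.7 CPM in control Ab-treated mice and between 11.3 and 27.1 CPM in anti-BAFF Ab-treated mice. The library of control Ab mouse 1 stood apart: the chi-square per degree of freedom between it and the other control mice was 54.3 to 70.2, against 7.32 to 23.0 among those 3. Epididymis genes, which mark tissue next to the gonadal fat pad, summed to 1666 CPM in control Ab mouse 2 and 1696 CPM in anti-BAFF Ab mouse 7 and to between 15.5 and 679 CPM elsewhere. Values without these mice are given with the fold changes.

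None of the 8 members passed an adjusted p of 0.05 between anti-BAFF Ab-treated and control Ab-treated mice in edgeR's quasi-likelihood test, where 0.0564% of the genes tested did. None passed an unadjusted p of 0.05 either, against 1.9% of all genes, and the groups overlapped for every member, whereas 0.526% of genes were higher and 0.952% were lower in anti-BAFF Ab-treated mice without overlap. The log2 fold change (anti-BAFF Ab over control Ab) was above 0 for 5 members and below 0 for 3, with a median of 0.11 beside 0.00 for all genes. Of all genes tested, 51.5% were above 0, the share that belongs beside each count of signs in the gene lists below. The 8 estimates lay between -0.52 for Ccl8 and 0.30 for Ccl2, and every member had an adjusted p of 1.00. Mean CPM compared by a two-sided exact permutation test gave p from 0.229 to 0.943, where the smallest p that 4 mice against 4 allow is 0.0286.

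**Figure D1:**
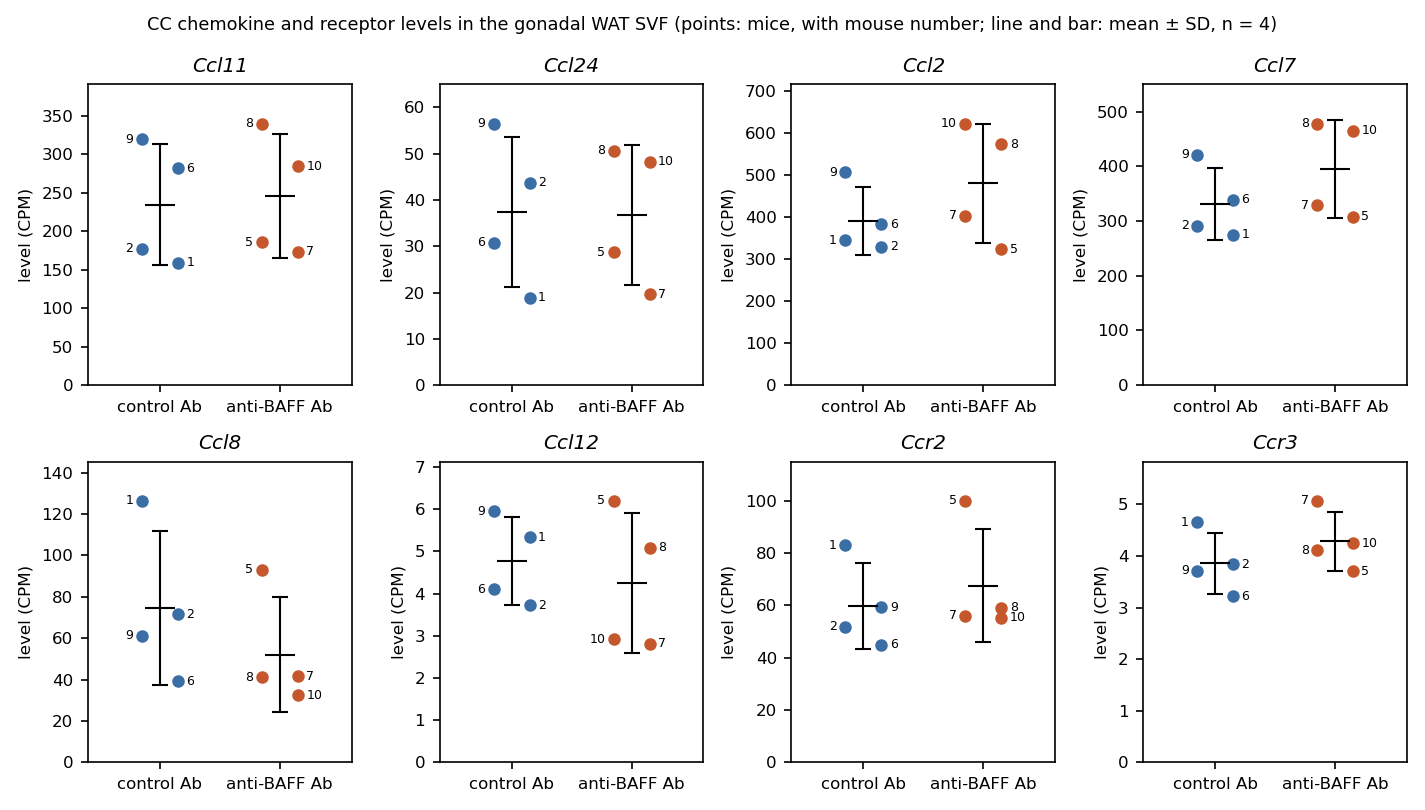
Level of each member in CPM (vertical axes from 0) in 4 control Ab-treated mice (blue) and 4 anti-BAFF Ab-treated mice (orange). Points are mice with their number, and the line and bar are the group mean ± SD; the groups overlap in every panel, and mice 1 and 5 are the upper points for Ccl8 and Ccr2.

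The eotaxins differed little between the groups in their means but widely between mice. Ccl11 (ENSMUSG00000020676), eotaxin-1, was at 159, 177, 282 and 320 CPM in control Ab mice 1, 2, 6 and 9. It was at 186, 173, 340 and 284 CPM in anti-BAFF Ab mice 5, 7, 8 and 10. Both groups thus held a low pair and a high pair, and the mice fell into separate sets with a gap from 186 to 282 CPM that took up 54.9% of the log2 range. The lower set was control Ab mice 1 and 2 and anti-BAFF Ab mice 5 and 7, and the upper set was control Ab mice 6 and 9 and anti-BAFF Ab mice 8 and 10. Summed endothelial markers were 619 to 901 CPM in the lower set and 1134 to 1318 CPM in the upper set. Other values were split by the same sets. Summed inflammatory genes upstream of the monocyte chemoattractants were 2637 to 3464 CPM in the lower set and 3936 to 4294 CPM in the upper set. Ccl7 was at 275 to 329 CPM and 339 to 478 CPM. The part of any of these in the Ccl11 levels was not tested. The means were 234 ± 78.6 CPM with control Ab and 246 ± 79.97 CPM with anti-BAFF Ab (SD, n = 4 each), a log2 fold change of 0.07 (SE 0.28, 95% interval -0.57 to 0.71, edgeR adjusted p = 1.00, exact permutation p = 0.743). Its sign depended on single mice, with -0.10 without control Ab mouse 1, -0.04 without control Ab mouse 2, -0.14 without anti-BAFF Ab mouse 8 and -0.01 without anti-BAFF Ab mouse 10. Without control Ab mouse 2 and anti-BAFF Ab mouse 7 the log2 fold change was 0.07.

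Ccl24 (ENSMUSG00000004814), eotaxin-2, which macrophages are known to make, was at 18.9, 43.7, 30.7 and 56.4 CPM in control Ab mice 1, 2, 6 and 9 and at 28.7, 19.6, 50.6 and 48.3 CPM in anti-BAFF Ab mice 5, 7, 8 and 10. Control Ab mouse 1 and anti-BAFF Ab mouse 7 were lowest, and control Ab mouse 9 was highest, 2.98 times the lowest mouse. The means were 37.5 ± 16.2 and 36.8 ± 15.1 CPM (SD, n = 4 each), with a log2 fold change of -0.03 (SE 0.37, 95% interval -0.87 to 0.82, edgeR adjusted p = 1.00, exact permutation p = 0.943). The value was 0.24 without control Ab mouse 2 and anti-BAFF Ab mouse 7, the pair rich in epididymis genes, a choice made after seeing the data. It also turned above 0 without control Ab mouse 2 (0.06), control Ab mouse 9 (0.24), anti-BAFF Ab mouse 5 (0.06) or anti-BAFF Ab mouse 7 (0.17), and was -0.27 without control Ab mouse 1. In bulk samples, fewer cells of a type and less RNA per cell cannot be told apart.

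Among the monocyte chemoattractants, Ccl2 and Ccl7 had the largest positive estimates, and the upper mice were the same for both. Ccl2 (ENSMUSG00000035385), or MCP-1, was at 345, 330, 383 and 506 CPM in control Ab mice 1, 2, 6 and 9 and at 323, 403, 573 and 623 CPM in anti-BAFF Ab mice 5, 7, 8 and 10. Anti-BAFF Ab mice 8 and 10 were above every control mouse, while anti-BAFF Ab mouse 5 was the lowest of all 8. The means were 391 ± 80.2 and 481 ± 141 CPM (SD, n = 4 each), a log2 fold change of 0.30 (SE 0.22, 95% interval -0.20 to 0.80, edgeR adjusted p = 1.00, exact permutation p = 0.286). It ranged from 0.15 to 0.45 when each mouse was left out in turn, and was 0.22 without control Ab mouse 1 and 0.28 without control Ab mouse 2 and anti-BAFF Ab mouse 7.

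Ccl7 (ENSMUSG00000035373), or MCP-3, was at 275, 292, 339 and 422 CPM in control Ab mice 1, 2, 6 and 9 and at 308, 329, 478 and 465 CPM in anti-BAFF Ab mice 5, 7, 8 and 10. As with Ccl2, anti-BAFF Ab mice 8 and 10 were above every control mouse, and for Ccl7 anti-BAFF Ab mice 5 and 7 lay within the control range. The means were 332 ± 65.7 and 395 ± 89.1 CPM (SD, n = 4 each), with a log2 fold change of 0.25 (SE 0.19, 95% interval -0.17 to 0.67, edgeR adjusted p = 1.00, exact permutation p = 0.229). It was 0.15 without control Ab mouse 1, and 0.25 without control Ab mouse 2 and anti-BAFF Ab mouse 7.

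Ccl8 (ENSMUSG00000009185), or MCP-2, in mice a ligand of CCR8, varied more between mice than any other member, by 3.89 times from the lowest to the highest. It was at 126, 71.6, 39.1 and 61.1 CPM in control Ab mice 1, 2, 6 and 9 and at 93.2, 41.6, 41.2 and 32.5 CPM in anti-BAFF Ab mice 5, 7, 8 and 10. Control Ab mouse 1 and anti-BAFF Ab mouse 5 were the 2 highest, and the other 3 anti-BAFF Ab mice lay between 32.5 and 41.6 CPM. The means were 74.5 ± 37.1 and 52.1 ± 27.7 CPM (SD, n = 4 each), a log2 fold change of -0.52 (SE 0.41, 95% interval -1.43 to 0.40, edgeR adjusted p = 1.00, exact permutation p = 0.429). Without control Ab mouse 1 it was -0.16, without anti-BAFF Ab mouse 5 it was -0.97, and without control Ab mouse 2 and anti-BAFF Ab mouse 7 it was -0.46.

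Ccl12 (ENSMUSG00000035352), or MCP-5, a further CCR2 ligand of the mouse, was low throughout, with 50 to 96 counts per library. It was at 5.33, 3.72, 4.10 and 5.95 CPM in control Ab mice 1, 2, 6 and 9 and at 6.19, 2.82, 5.09 and 2.92 CPM in anti-BAFF Ab mice 5, 7, 8 and 10. Anti-BAFF Ab mouse 5 was the highest of all and anti-BAFF Ab mice 7 and 10 the lowest, so the control range lay inside that of the treated mice. The means were 4.78 ± 1.04 and 4.26 ± 1.66 CPM (SD, n = 4 each), with a log2 fold change of -0.17 (SE 0.30, 95% interval -0.84 to 0.50, edgeR adjusted p = 1.00, exact permutation p = 0.629). It was -0.13 without control Ab mouse 1, -0.14 without control Ab mouse 2 and anti-BAFF Ab mouse 7, and between -0.42 (without anti-BAFF Ab mouse 5) and -0.03 (without anti-BAFF Ab mouse 7 or 10) when single mice were left out.

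The receptors showed no difference between the groups that passed the test. Ccr2 (ENSMUSG00000049103), the receptor of classical monocytes, was at 83.1, 51.8, 45.1 and 59.3 CPM in control Ab mice 1, 2, 6 and 9 and at 99.97, 56.0, 59.1 and 55.3 CPM in anti-BAFF Ab mice 5, 7, 8 and 10. Control Ab mouse 1 and anti-BAFF Ab mouse 5, the mice with the most Ccl8, were the highest, and the remaining 6 lay between 45.1 and 59.3 CPM. The means were 59.8 ± 16.6 and 67.6 ± 21.7 CPM (SD, n = 4 each), a log2 fold change of 0.18 (SE 0.24, 95% interval -0.37 to 0.72, edgeR adjusted p = 1.00, exact permutation p = 0.543). It was -0.090 without anti-BAFF Ab mouse 5 and 0.36 without control Ab mouse 1, and 0.18 without control Ab mouse 2 and anti-BAFF Ab mouse 7. Summed macrophage markers were also highest in these mice, 12036 CPM in control Ab mouse 1 and 9633 CPM in anti-BAFF Ab mouse 5 against 7294 to 9045 CPM in the others, while monocyte markers were lowest in control Ab mouse 1 (966 CPM) and within the range of the others in anti-BAFF Ab mouse 5 (1246 CPM). Over the 8 mice, r with summed macrophage markers was 0.72 for Ccr2 and 0.71 for Ccl8 (exact permutation p = 0.045 and 0.046, adjusted 0.380 each). Leaving out control Ab mice 1 and 6 gave r = 0.53 and 0.25. With summed monocyte markers, mostly Ace and F13a1, r was -0.50 and -0.49 (exact permutation p = 0.194 and 0.223, adjusted 0.523 each). These pairs were chosen after seeing the data, and whether either cell type set the levels was not tested.

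Ccr3 (ENSMUSG00000035448), the eotaxin receptor, rested on 44 to 90 counts per library. It was at 4.65, 3.84, 3.22 and 3.72 CPM in control Ab mice 1, 2, 6 and 9 and at 3.70, 5.07, 4.11 and 4.25 CPM in anti-BAFF Ab mice 5, 7, 8 and 10. The values of the groups were interleaved, and the means were 3.86 ± 0.594 and 4.28 ± 0.572 CPM (SD, n = 4 each), a log2 fold change of 0.15 (SE 0.18, 95% interval -0.26 to 0.56, edgeR adjusted p = 1.00, exact permutation p = 0.4). It was 0.04 without control Ab mouse 2 and anti-BAFF Ab mouse 7, 0.05 without anti-BAFF Ab mouse 7 alone, 0.07 without control Ab mouse 6 and 0.23 without control Ab mouse 1.

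**Figure D2:**
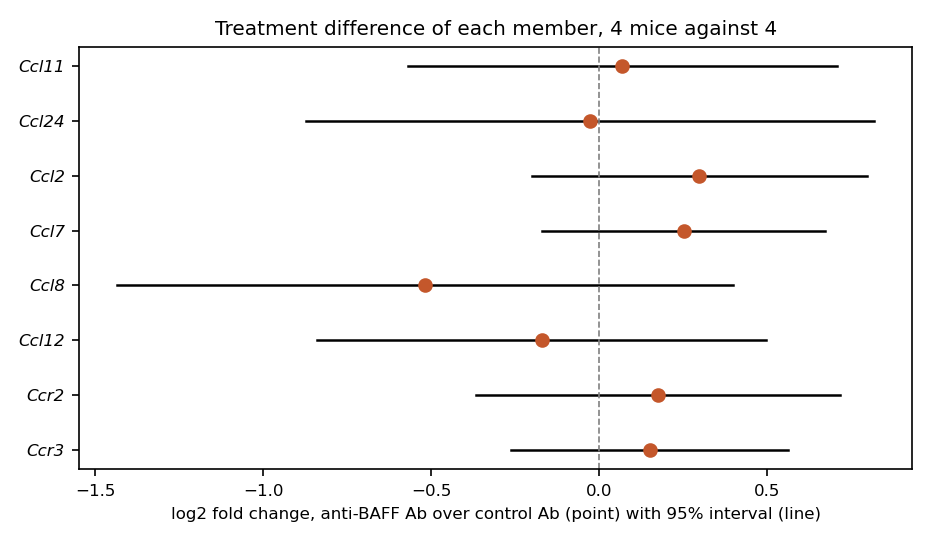
Log2 fold change of each member, anti-BAFF Ab over control Ab (points), with its 95% interval (lines) from edgeR's fit to 4 mice against 4. The points run from -0.52 (Ccl8) to 0.30 (Ccl2), and every interval includes 0.

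Levels of different genes were compared per length, as FPKM (CPM divided by the gene length in kilobases). Averaged over the 8 mice the order was Ccl7 (454 FPKM), Ccl2 (383), Ccl11 (222), Ccl8 (124), Ccl24 (28.7), Ccr2 (9.42), Ccl12 (8.41) and Ccr3 (1.24). Neighbours in this order were compared within each mouse by a two-sided exact sign-flip permutation test adjusted over the 7 pairs. Ccl7 was above Ccl2 in 8 of 8 mice, by a mean log2 ratio of 0.26 (adjusted p = 0.0109). Ccl2 was above Ccl11 in 8 of 8 mice by 0.81, Ccl8 above Ccl24 by 2.07, Ccl24 above Ccr2 by 1.54 and Ccl12 above Ccr3 by 2.71, each with the same exact adjusted p of 0.0109. The unadjusted p of these pairs, 0.0078, is the smallest that 8 mice allow. The test covers the spread between mice and takes the gene lengths as exact. In CPM, not divided by length, the log2 ratio of Ccl7 over Ccl2 was -0.25 and that of Ccl24 over Ccr2 was -0.84. The order within each of these 2 pairs thus rests on the lengths. Ccl11 exceeded Ccl8 in 6 of 8 mice (mean log2 ratio 0.93, exact adjusted p = 0.0547), and in control Ab mouse 1 and anti-BAFF Ab mouse 5 Ccl8 took the higher place. This pair passed the test without control Ab mouse 1 (1.17, exact adjusted p = 0.0365). Ccr2 and Ccl12 did not differ beyond their spread (0.18, higher Ccr2 in 5 of 8 mice, exact adjusted p = 0.219). The length used for Ccr2, 6760 bases, belongs to a gene model that ends at 124113557, whereas the RefSeq gene ends at 124109140. The Ccr3 model starts at 124021972, and its RefSeq gene at 124017825. A length that is too long lowers the FPKM of a gene in every mouse.

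The eotaxins were set apart in level, Ccl11 being 8.002 times Ccl24 per length (4.84 to 10.98 times in single mice). Between the neighbours whose upstream sequences are shown, Ccl8 was 13.8 times Ccl12 per length, from 8.51 to 24.9 times over the 8 mice. Within the chromosome 11 group, Ccl7 was 55.0 times Ccl12. Of the receptors, Ccr2 was 7.40 times Ccr3 per length, by the lengths of the gene models described above.

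**Figure D3:**
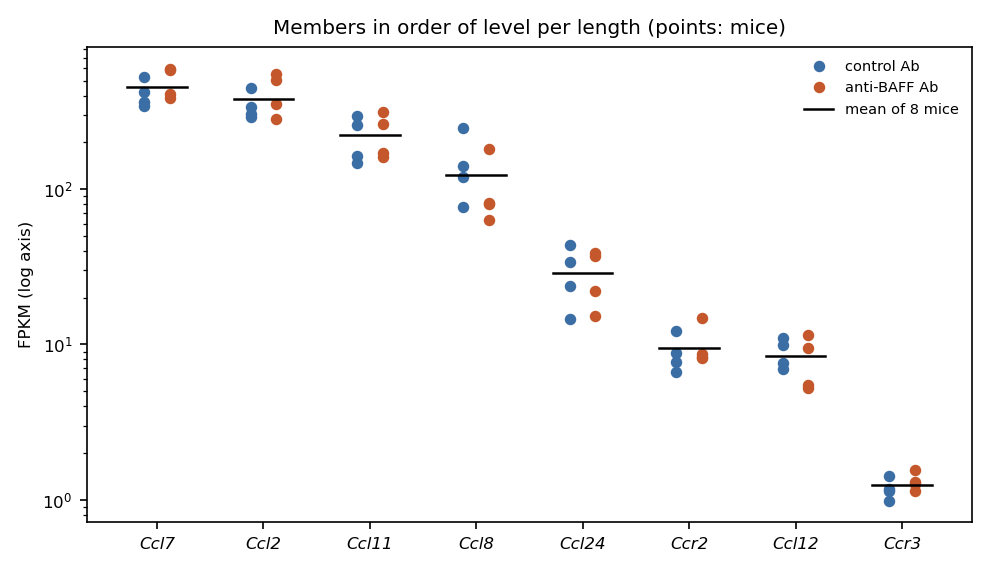
Members in order of mean FPKM (log axis) with 1 point per mouse, control Ab in blue and anti-BAFF Ab in orange, and a line at the mean of 8 mice. Mean levels fall from 454 FPKM for Ccl7 to 1.24 FPKM for Ccr3, and the points of both treatments overlap for every member.

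Whether members varied together from mouse to mouse was examined for 21 pairs of 7 members on the log2 CPM scale. Ccl11 was left out because its mice fall into separate sets of 4, too few for a value within a set, so no correlation with the other members is given for it. Ccl2 and Ccl7 varied together, with Pearson r = 0.97 (exact permutation p = 0.000694, adjusted 0.0146) and Spearman rho = 0.86 (exact permutation p = 0.0107, adjusted 0.193). Without anti-BAFF Ab mice 8 and 10, the farthest from the median of Ccl2, r was 0.92 (exact permutation p = 0.0194). Leaving out each mouse in turn gave r from 0.96 to 0.98, with an adjusted p at or above 0.05 (0.05 to 0.117) without control Ab mouse 6 or 9 or anti-BAFF Ab mouse 7, 8 or 10. With values centred on their group mean r was 0.96 and the exact adjusted p 0.146, from a permutation test that shuffled mice only within their group. Of the 21 pairs, 1 passed the adjusted Pearson test and 0 the adjusted Spearman test.

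Ccl8 ran the other way to these genes without passing the test. Its r was -0.70 with Ccl2 (rho -0.76, exact permutation p = 0.0594 and 0.0368) and -0.72 with Ccl7 (rho -0.81, exact permutation p = 0.0551 and 0.0218), with an adjusted p of 0.249 for each r and 0.193 for each rho. Without anti-BAFF Ab mice 8 and 10, r was -0.48 and -0.54. Ccl8 and Ccr2 had r = 0.75 (exact permutation p = 0.0297, adjusted 0.249) and rho = 0.67 (exact permutation p = 0.0831, adjusted 0.291), and r was 0.10 without control Ab mouse 1 and anti-BAFF Ab mouse 5, so that the relation rests on those mice. Ccl24 and Ccl7 had r = 0.73 (exact permutation p = 0.0520, adjusted 0.249) and rho = 0.76 (exact permutation p = 0.0368, adjusted 0.193), and r = 0.69 without control Ab mouse 1 and anti-BAFF Ab mouse 7. Ccl8 and its neighbour Ccl12 had r = 0.64 (exact permutation p = 0.0935, adjusted 0.275) and rho = 0.57 (exact permutation p = 0.151, adjusted 0.397), and r = 0.44 without the same pair of mice that Ccl8 and Ccr2 rested on.

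**Figure D4:**
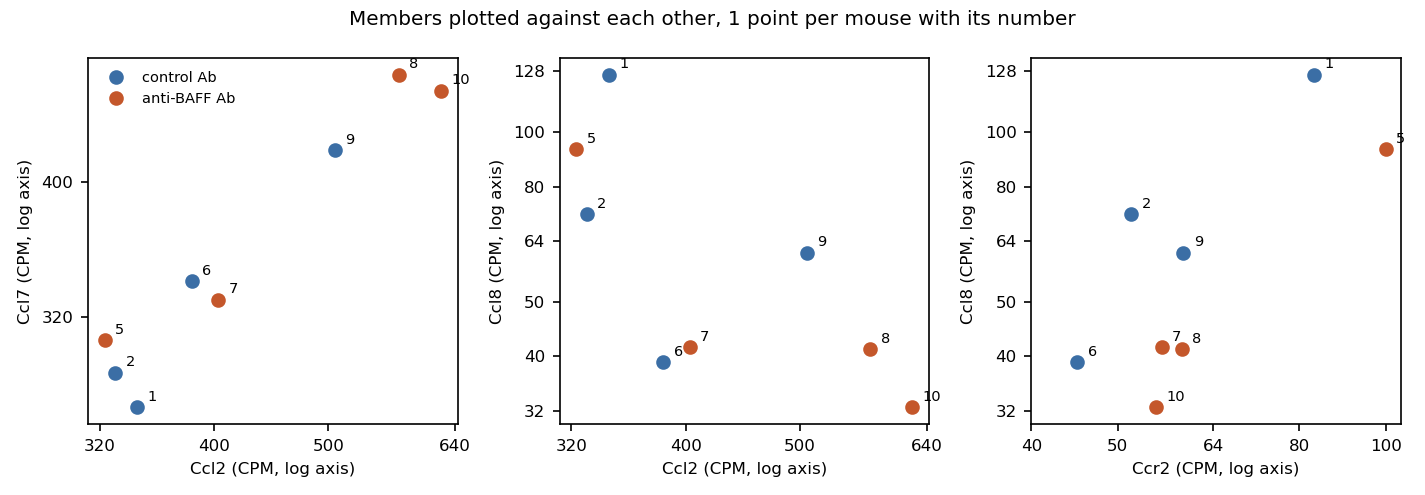
Levels in CPM (log axes) of Ccl7 against Ccl2, Ccl8 against Ccl2 and Ccl8 against Ccr2, with 1 numbered point per mouse (control Ab blue, anti-BAFF Ab orange). The Ccl2 and Ccl7 points lie along a rising line (r = 0.97), and in the Ccr2 panel mice 1 and 5 stand away from the other 6.

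Members were also set against 13 summed cell type and tissue digestion marker lists, 91 pairs chosen after seeing the data, of which 11 passed an unadjusted p of 0.05 and 0 an adjusted one. Ccl24 with monocyte markers had r = 0.93 (exact permutation p = 0.00196, adjusted 0.0903) and rho = 0.76 (exact permutation p = 0.0368, adjusted 0.478), with r = 0.81 without control Ab mouse 1 and anti-BAFF Ab mouse 7. Ace, the most abundant gene of that list at 768 ± 199 CPM with control Ab and 774 ± 131 CPM with anti-BAFF Ab (SD, n = 4 each), is also expressed by other cells such as endothelium. F13a1 came next, at 483 ± 103 CPM with control Ab and 477 ± 102 CPM with anti-BAFF Ab. The other genes of the list had group means of at most 27.2 CPM. Values with the monocyte sum thus mostly describe Ace and F13a1 and not every marker of the list. The remaining markers were not tested apart from these genes. Ccr3 with immediate early and heat shock genes had r = -0.90 (exact permutation p = 0.00198, adjusted 0.0903) and rho = -0.86 (exact permutation p = 0.0107, adjusted 0.478), with r = -0.76 without the same mice. These genes are known to respond to tissue digestion, and they summed to 11166 to 17681 CPM with control Ab and 10988 to 16149 CPM with anti-BAFF Ab. Ccr2 with monocyte markers had r = -0.50 (exact permutation p = 0.194, adjusted 0.523) and rho = -0.52 (exact permutation p = 0.197, adjusted 0.608). Without control Ab mouse 1 and anti-BAFF Ab mouse 7, this r was -0.53. Besides the Ccl24 and Ccr3 pairs above, those past an unadjusted p of 0.05 had exact adjusted p from 0.284 to 0.380. They were Ccl24 with mesothelial (r = 0.79), endothelial (0.76) and erythroid markers (0.76), and Ccl7 with endothelial markers (0.78). Ccl8 was among them with macrophage (0.71), endothelial (-0.77) and adipocyte markers (-0.76), and Ccr2 with macrophage (0.72) and fibroblast and adipocyte progenitor markers (0.76). Ccl24 with macrophage markers was not among them, with r = -0.56 (exact permutation p = 0.152, adjusted 0.513) and rho = -0.48 (exact permutation p = 0.243, adjusted 0.608). Among the digestion genes, Fosb was the most abundant and Hspa1a had the smallest p between the treatments (12 tested, 1 above 0, median -0.23, 0 past an unadjusted p of 0.05).

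The genes whose levels followed a member most closely over the 8 mice were found among 14855 tested genes with a mean of at least 1 CPM, and are named as a description without a test. For Ccl11 these were Dnajb6 (r = 1.00), Cltb (0.99) and Arhgap23 (0.98), and 345 genes had r above 0.9, values that rest on the 2 separate sets of Ccl11 levels. For Ccl24 they were Deptor, Tcrg-C1 and Galnt16 (0.98 each). For Ccl2 they were Riok2, Gtpbp4 and Car13 (0.98 each), and for Ccl7 they were Eif3e (0.99), Pdpn (0.99) and Ddx21 (0.98). Ccl8 was followed by Ptpn9 (0.98), Apba3 (0.98) and Cyb561a3 (0.96). The nearest genes to Ccl12 were Trim46, Jaml and Gm10076 (0.93 each), with 11 genes above 0.9. Ccr2 was followed by Treml4 (0.99), Fbxl5 (0.99) and Gpr141 (0.98), and Ccr3 by Lbhd1 (0.98), Zfp84 (0.97) and Cops3 (0.97). Treml4, a gene of patrolling monocytes and 1 of the summed monocyte markers, was low at 1.46 to 6.80 CPM. Its r of 0.99 with Ccr2 stands beside r = -0.50 for Ccr2 with the whole monocyte list, which mostly describes Ace and F13a1. Values for Ccl8 and Ccr2 include control Ab mouse 1 and anti-BAFF Ab mouse 5, the highest mice for both, and were not computed without them. The lists share libraries, and with 8 mice many genes reach such values.

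The remaining CC chemokines did not pass the test between the treatments. Of 15 listed, 11 were tested, with 5 above 0 and 6 below 0 on the log2 scale, a median of -0.08 beside 0.00 for all genes, and 0 past an unadjusted or adjusted p of 0.05. Ccl6, a chemokine of myeloid cells, was the most abundant at 693 ± 299 CPM with control Ab and 654 ± 82.8 CPM with anti-BAFF Ab (SD, n = 4 each). Ccl3 (MIP-1α), a ligand of CCR1, had the smallest p, with 46.5 ± 10.5 and 58.7 ± 7.34 CPM and a log2 fold change of 0.34 (SE 0.16, edgeR adjusted p = 1.00). Ccl20 was at 0 counts in every mouse.

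Of 13 other CC receptors and scavengers, 11 were tested, with 4 above 0 and 7 below 0 and a median of -0.11. Ccrl2, a non-signalling relative that binds chemerin, was the most abundant at 269 ± 66.0 and 249 ± 64.8 CPM. Ccr6, the CCL20 receptor of B cells and some T cells, was the only receptor past an unadjusted p of 0.05, at 1.03 ± 0.220 and 0.462 ± 0.194 CPM (SD, n = 4 each), with a log2 fold change of -1.15 (SE 0.35, edgeR adjusted p = 1.00), and its groups overlapped. The lowest Ccr6 value, 0.326 CPM, was near the floor of at most 0.221 CPM. All 8 B cell markers were below 0 at an unadjusted p of 0.05 (median -1.65, smallest p for Pax5), against 1.9% of all genes past that p in either direction. The part of the B cell markers in the Ccr6 value was not tested.

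**Figure D5:**
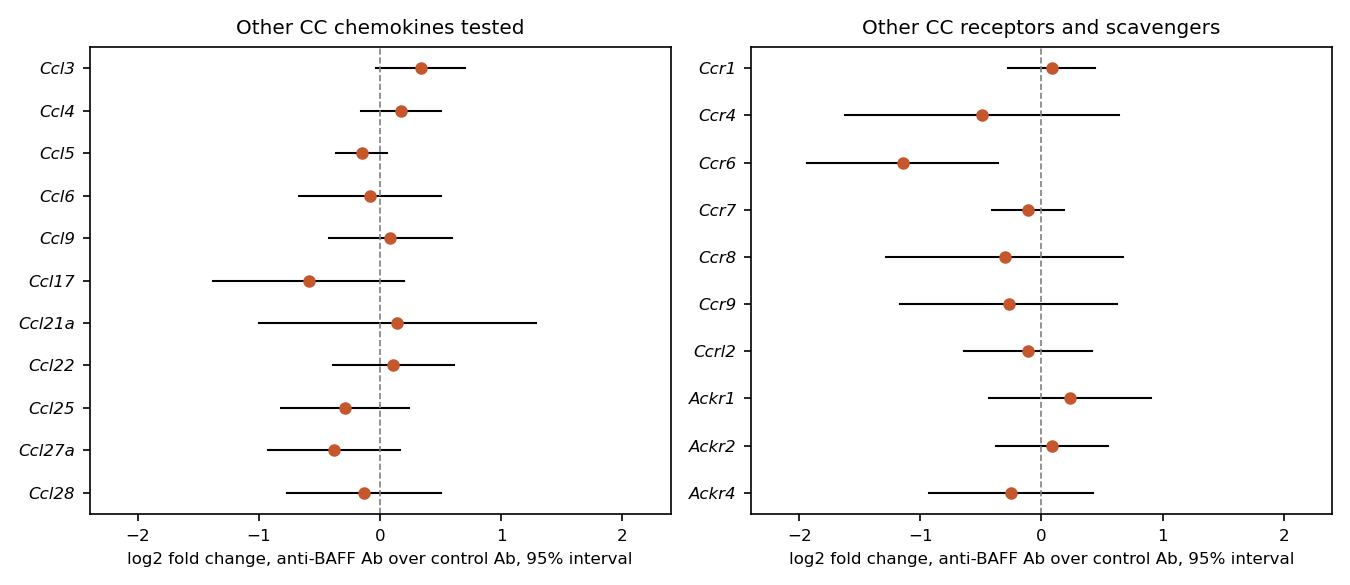
Log2 fold change, anti-BAFF Ab over control Ab, with 95% interval for the 11 other CC chemokines that were tested (left) and 10 of the 11 other CC receptors and scavengers that were tested (right). Among the genes plotted, only the interval of Ccr6 (log2 fold change -1.15) leaves out 0.

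Of 13 genes of type 2 signals, 10 were tested, with 8 above 0, 2 below 0 and a median of 0.13. The list holds the genes of IL-4, IL-13 and STAT6, by which eotaxins are induced, and also others such as Il5 and Il5ra. Il4ra, the receptor subunit that IL-4 and IL-13 share, was the most abundant at 231 ± 32.9 and 242 ± 44.6 CPM. Il5ra, the IL-5 receptor subunit of eosinophils and some B cells, was at 1.36 ± 0.331 and 0.706 ± 0.124 CPM (SD, n = 4 each), a log2 fold change of -0.93 (SE 0.28, edgeR adjusted p = 1.00), without overlap of the groups, and it had the smallest p of both the type 2 and the eosinophil list. Il9 had 0 counts in every mouse.

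Of 15 inflammatory genes upstream of the monocyte chemoattractants, 13 were tested, with 11 above 0, 2 below 0, a median of 0.11 and 0 past an unadjusted p of 0.05. Nfkbia, which NF-kB induces, was the most abundant at 809 ± 60.1 and 859 ± 75.8 CPM. Il1a had the smallest p, with 46.6 ± 13.2 and 62.2 ± 22.9 CPM and a log2 fold change of 0.42 (SE 0.30, edgeR adjusted p = 1.00). The 14 genes of chemokine receptor signalling were all tested, with 10 above 0, 4 below 0, a median of 0.03 and 0 past an unadjusted p of 0.05. Gnai2, the G protein subunit these receptors couple to, was at 718 ± 76.6 and 731 ± 32.4 CPM, and Pik3cg, the lipid kinase downstream, had the smallest p (edgeR adjusted p = 1.00).

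Cells that bear or answer these receptors were examined by their markers. Of 10 eosinophil markers, 6 were tested, with 2 above 0 and 4 below 0 and a median of -0.24. The eosinophil granule genes Epx and Ear6 were at 0 counts in every mouse, Prg3 did not exceed 0.0563 CPM in any mouse, and Siglecf was at 2.97 ± 0.200 and 2.70 ± 0.424 CPM (SD, n = 4 each), while Alox15, which macrophages also express, was at 13.9 ± 8.58 and 9.53 ± 4.32 CPM. Prg2 was between 0.585 and 1.18 CPM over the 8 mice. The sum of the list was 57.6 to 69.8 CPM with control Ab and 39.9 to 57.4 CPM with anti-BAFF Ab (exact permutation p = 0.0286, adjusted 0.257 over 18 lists). Ear2, which macrophages and monocytes also express, was its most abundant gene, at 43.3 ± 5.02 and 34.4 ± 8.52 CPM (edgeR adjusted p = 1.00).

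Monocyte markers, mostly Ace and F13a1, summed to 966 to 1599 CPM with control Ab and 1107 to 1517 CPM with anti-BAFF Ab. Of the tested genes, 6 of 9 were above 0 with a median of 0.02, and Ly6c2 had the smallest p (edgeR adjusted p = 1.00). Macrophage markers (10 of 10 tested, 6 above 0, median 0.00) and fibroblast markers (10 of 10 tested, 7 above 0, median 0.06) also held 0 genes past an unadjusted p of 0.05. Mast cells, which can carry CCR3, had all 8 markers above 0 with a median of 0.46, and 4 of them at an unadjusted p of 0.05. Among all genes tested, 51.5% were above 0 and 1.9% passed that p in either direction. The markers were measured in the same 8 mice, so they are not separate results. Their sum was 569 to 1147 CPM with control Ab and 1026 to 1590 CPM with anti-BAFF Ab (exact permutation p = 0.0857, adjusted 0.514). Kit, the stem cell factor receptor of mast cells, had the smallest p, at 59.6 ± 8.35 and 77.9 ± 5.21 CPM (log2 fold change 0.39, SE 0.11, edgeR adjusted p = 1.00), without overlap of the groups. Neutrophil markers, 6 of 10 tested with 5 above 0 and a median of 1.34, were highest in anti-BAFF Ab mouse 5 at a sum of 232 CPM, against 36.3 to 103 CPM in the other mice. S100a9, a neutrophil gene, had the smallest p of that list (log2 fold change 2.59, SE 1.09, edgeR adjusted p = 1.00), with 42.3 CPM in the highest mouse and 1.18 CPM in the lowest. Its means were 2.05 ± 1.53 and 12.4 ± 19.9 CPM (SD, n = 4 each), whereas the log2 fold change was 0.01 for Ltf and -1.47 for Retnlg. Among the pairs of members and marker lists, the strongest r with mast cell markers was 0.60, for Ccr3 (exact permutation p = 0.111, adjusted 0.510). With neutrophil markers it was -0.59, for Ccl2 (exact permutation p = 0.0974, adjusted 0.510), with rho = -0.79 (exact permutation p = 0.0279, adjusted 0.478). No pair with either list passed an adjusted p of 0.05. Whether mast cells or neutrophils set the levels of the members was not tested.

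The leading genes of the remaining marker lists did not pass an adjusted p of 0.05. In the macrophage list Lyz2 was the most abundant (5209 ± 1697 and 5209 ± 409 CPM) and Cd163 had the smallest p, and in the fibroblast list these were Col3a1 (4438 ± 1739 and 4757 ± 503 CPM) and Lum. All 6 endothelial markers were tested, with 4 above 0 and a median of 0.05, led by Cdh5 in level and Emcn in p. All 7 mesothelial markers, led by Upk3b and Upk1b, were below 0 with a median of -0.18. Of 6 adipocyte markers, 4 were above 0 with a median of 0.14, Cidec being the most abundant (14.5 ± 2.97 and 16.0 ± 0.400 CPM) and Retn having the smallest p. Of 10 epididymis genes 5 were tested, with 2 above 0 and a median of -0.07, led by Crisp1 and Spink11, and of 6 erythroid genes 5 were tested, with 3 above 0 and a median of 0.04, led by Hbb-bs and Hba-a2. In these lists 0 genes passed an unadjusted p of 0.05. Tpsb2 was the most abundant mast cell marker, Csf3r the most abundant neutrophil marker and Cd79a the most abundant B cell marker.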

How the data were processed

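Bulk RNA sequencing of the SVF was analysed for 8 mice, grouped by the treatment in the labels and numbered by the mouse number in the labels. The authors had paired-end libraries sequenced on a NovaSeq instrument at a company and deposited 1 table of unnormalized counts, genes by mice. Gene coordinates, biotypes and the gene length (another value, in bases) are in the deposited table too. The build named in the processing notes is mm10. The aligner, the counter, the annotation release and strandedness are not given in the sources used here, and reads shared between related genes may have been counted differently. The methods name FPKM, which was computed here from counts and gene length only to compare genes.

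The test of the deposited counts used edgeR 4.0.16 under R 4.3.3 (minimum count 10 in filterByExpr, TMM, quasi-likelihood F-test, treatment as the only term), with Benjamini-Hochberg adjustment over 15963 genes. Standard errors came from the F statistic, with 3.14 prior degrees of freedom. Relations used log2 CPM with a prior count of 2. Exact tests ran in Python 3.11.15 with scipy 1.17.1, and the pipeline was tested on simulated data. Alternatives were other normalizations and filters, edgeR's robust option, DESeq2 1.42.0, limma 3.58.1 on log2(FPKM + 1) and log2(FPKM + 0.1), other scales and rank tests, a prior count of 0.5, group-centred values and leaving out each mouse. Each replicate is a separate mouse, and no library was a repeat of another, since replicates differed by a chi-square of at least 7.32 per degree of freedom. The members and gene lists were chosen with earlier results of these data known. The text names all members, the most abundant and smallest-p tested gene of lists, and the 3 genes most like each member. Further genes (Ccl20, Il9 and eosinophil granule genes at 0, Siglecf, Prg2, Prg3, Alox15 and Gm17268) were named after their values were seen. The flow cytometry and protein assays were not analysed here, and 1 receptor counted in its list is not reported here by name.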

Additional observations from a re-analysis of the deposited data

Results flagged for a closer look

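In anti-BAFF Ab mouse 5, Ccl8 was at 93.2 CPM, whereas the other 3 anti-BAFF Ab-treated mice lay between 32.5 and 41.6 CPM. The gap to the nearest mouse made up 0.85 of the range of the group, above Dixon's 95% limit for 4 samples. In the same mouse Ccr2 was at 99.97 CPM, against 55.3 to 59.1 CPM in the other 3, with a gap of 0.915 of the range. Of 16 sets of 4 mice examined (8 members in each group), 2 held a mouse that stood apart in this way, where chance gives about 0.8.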

How the results depend on the processing

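Of 132 values recomputed under alternatives other than leaving out a mouse, 122 kept their direction and side of the threshold. No member passed an adjusted p of 0.05 under any alternative or without any mouse. Ccl24 turned to a log2 fold change of 0.24 without control Ab mouse 2 and anti-BAFF Ab mouse 7. With CPM not divided by gene length, the log2 ratio of Ccl7 over Ccl2 was -0.25 and of Ccl24 over Ccr2 -0.84 (both reversed), of Ccl8 over Ccl24 0.73 (exact adjusted p = 0.118) and of Ccl12 over Ccr3 0.11 (exact adjusted p = 0.602), while Ccl11 over Ccl8 was 2.01 and Ccr2 over Ccl12 3.83 (exact adjusted p = 0.0109 each). These changes follow from the lengths, which the alternative leaves out, and the sign-flip test does not cover an error in the lengths. Ordered by median FPKM, Ccr2 over Ccl12 was -0.0071. With group-centred values 0 pairs of members passed the adjusted p, and r of Ccl2 and Ccl7 was 0.96 (exact adjusted p = 0.146). This test shuffled mice only within their group, which allows fewer arrangements than the main test, so the p values of the tests are not directly comparable. Leaving out each mouse in turn gave log2 fold changes of -0.14 to 0.26 for Ccl11, -0.27 to 0.24 for Ccl24, 0.15 to 0.45 for Ccl2, 0.13 to 0.39 for Ccl7, -0.97 to -0.16 for Ccl8, -0.42 to -0.03 for Ccl12, -0.090 (without anti-BAFF Ab mouse 5) to 0.36 for Ccr2 and 0.05 to 0.23 for Ccr3. The mean difference in CPM was -19.8 to 39.9 for Ccl11, -6.86 to 5.65 for Ccl24 and -3.02 to 15.5 for Ccr2, and kept its sign for the other members. Ccl11 over Ccl8 was 0.77 to 1.17 (exact adjusted p = 0.0365 to 0.109), pairs of members past the adjusted p numbered 0 to 1, and r of Ccl2 and Ccl7 was 0.96 to 0.98 (exact adjusted p = 0.0333 to 0.117). No paired analysis was possible because the mouse numbers differ between the groups. Ccl12 and Ccr3 rested on 44 to 96 counts per library, the fewest of the members.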
